A study of Mus musculus with 6 samples.

Results

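The genes that build ribosomes were described in epidermal sheets of mouse embryos with a conditional knockout of Rptor, against those of wild-type littermates. Rptor encodes Raptor, which presents substrates to the growth kinase complex mTORC1. The members are 46 genes of RNA polymerase I and of rRNA processing, chosen by name, and each was read by a probe set that names that gene alone. Where a gene had several, the brightest by its mean over the 6 arrays was taken. This gave 44 of the 46 members, of 30063 genes tested in all. Nop56 and Gnl3 were left out because their probe sets also carry the name of a small nucleolar RNA (Snord57 and Snord19). Biotin-labelled total RNA was read on 6 arrays, with Rptor cKO epidermis on 3 (arrays 1 to 3) and wild-type epidermis on 3 (arrays 4 to 6). All embryos were at stage E18.5, late in gestation. The sheets were freed from the dermis with ammonium thiocyanate. Embryos were classified by hand as Rptor cKO or wild type and also genotyped. The sources used here do not give the Cre driver or the deleted exons. All values are log2 probe set values as deposited, and every difference is Rptor cKO minus wild type on that scale.

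Ribosome biogenesis begins in the nucleolus, where RNA polymerase I copies the rRNA genes into a long precursor. UBTF opens and marks these genes, and RRN3 brings the polymerase to them. The small-subunit processome, with the U3 small nucleolar RNP, folds and cleaves the part that becomes the small subunit, while other assembly factors mature the large subunit. Small nucleolar RNPs guide the methylation and pseudouridylation of rRNA. mTORC1 is known to favour this pathway, in part through RRN3, and MYC is known to switch on many of its genes. In epidermis, large nucleoli are typical of growing basal cells, and are lost as keratinocytes cornify.

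Rptor itself differed by -0.46 (SE 0.15, limma adjusted p = 0.0988), with all 3 Rptor cKO arrays below all 3 wild-type arrays. Judged by Xist and Y-linked genes, Rptor cKO arrays 1 and 3 were female, while Rptor cKO array 2 and the 3 wild-type arrays were male. In such sheets fewer cells of a type and less RNA per cell cannot be told apart. Each of the 44 members lay above the median of negative control probe sets on each array, although the 95 percentile of those controls, 7.46 to 8.07, was above the level of many members. Precision is limited by the small number of arrays.

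Every ribosome biogenesis gene of the list that passed the test was higher in Rptor cKO epidermis. Of 44 members, 10 rose and none fell past a limma adjusted p of 0.05, and 34 did not pass. The 10 were Polr1a and Polr1b of the polymerase, Utp20 and Nat10 of the small subunit, Nop2, Rrp1b and Noc2l of the large subunit, and the nucleolar proteins Npm1, Nolc1 and Mybbp1a. The share called higher was 22.7% of the members, against 3.64% of all genes tested. Of all genes 9.60% were called, and 5.96% were called lower. With genes below the negative control level left out, 5.39% of genes were called higher. The median difference of the members was 0.29, and that of all genes 0.05. At an unadjusted p under 0.05, 19 of the 44 members were higher and 2 lower, where 3574 and 3423 of the 30063 genes were. The Rptor cKO arrays lay above all wild-type arrays for 21 members and below them for 3, where 16.5% and 12.5% of all genes did so.

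The rises were modest, from 1.39-fold for Polr1a to 1.71-fold for Polr1b. The number called depended on single arrays. It was 5 without Rptor cKO array 1, 2 without array 2 and 7 without array 3, and 5, 6 and 11 without wild-type arrays 4, 5 and 6. Calls over all genes also fell. The share of all genes called higher was 2.46%, 0.92% and 2.74% without Rptor cKO arrays 1, 2 and 3. Without wild-type arrays 4, 5 and 6 it was 2.22%, 2.61% and 2.84%, against 3.64% with all 6 arrays. Polr1b and Utp20 passed in each of these 6 fits, and no member was called lower in any. Embryo sex differed between the groups, and with sex as a term 1 of the 10 calls was left, that of Mybbp1a, while Polr1b (0.67, adjusted p = 0.144) and Utp20 (0.65, adjusted p = 0.108) did not pass. That fit sets the 1 male Rptor cKO array against the wild type. The median difference was 0.20 to 0.35 over the same fits. In simulated data the procedure recovered 16% of differences of 0.5. Far fewer genes were changed there than passed here, so that share does not give the power of this test.

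**Figure D1:**
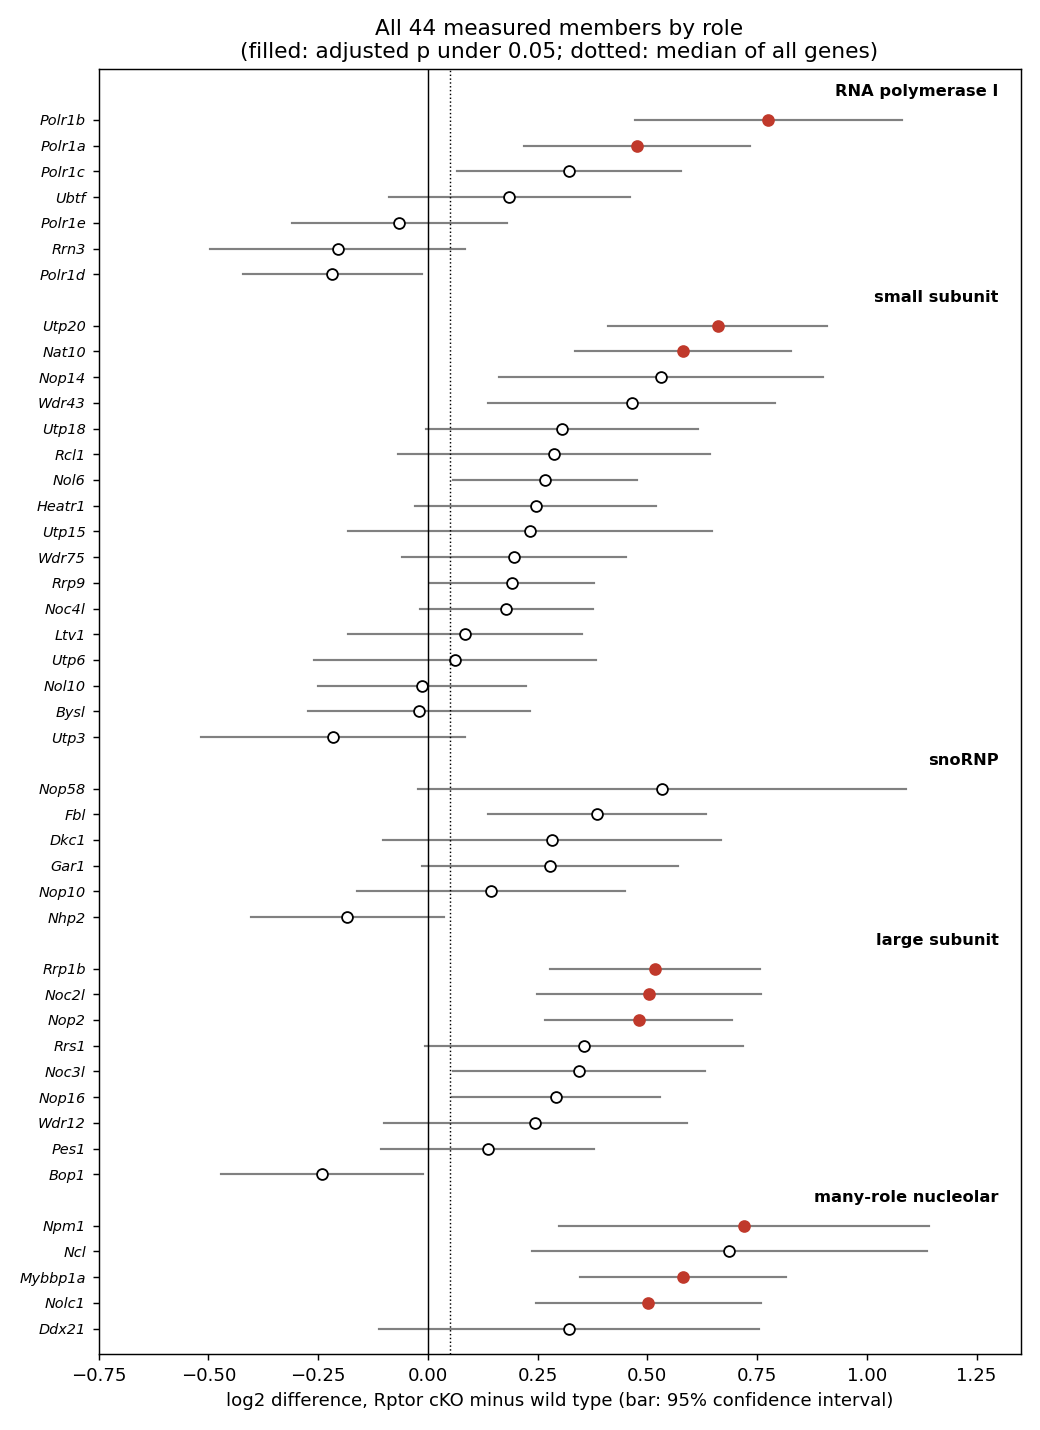
Log2 difference, Rptor cKO minus wild type, of each of the 44 measured members, grouped by role and ordered by size within a role. Points are limma estimates from 3 arrays a group, bars are 95% confidence intervals, filled points passed an adjusted p of 0.05, and the dotted line is the median of all genes at 0.05. All 10 filled points lie to the right of 0, and 8 of the 44 points lie to its left.

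In RNA polymerase I the 2 catalytic subunits rose. They were 28.6% of the 7 members, against 3.64% of all genes called higher. None of the 7 fell and 5 did not pass, and the median difference was 0.19, or 0.09 without Rptor cKO array 2. Polr1b, the second-largest subunit and part of the active centre (chromosome 2, 129100970 to 129128060, GRCm38), read 7.39, 7.12 and 7.16 in Rptor cKO, against 6.46, 6.22 and 6.65 in wild type. The groups were apart by more than the range within either. The difference was 0.78 (SE 0.13, adjusted p = 0.0105), the largest of the 44. Polr1a, the largest subunit (chromosome 6, 71909053 to 71979435), read 6.80, 6.63 and 6.61 in Rptor cKO, against 6.06, 6.18 and 6.38 in wild type. It rose by 0.48 (SE 0.11, adjusted p = 0.0345), with array 6 the closest of the wild-type arrays. That call was lost with any 1 array left out other than wild-type array 6.

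Polr1c and Polr1d form the assembly platform that RNA polymerase I shares with RNA polymerase III. Neither passed the test. Polr1c averaged 8.45 ± 0.18 on the Rptor cKO arrays and 8.13 ± 0.073 on the wild-type arrays (SD, n = 3 each), a difference of 0.32 (limma adjusted p = 0.121). Polr1d averaged 6.97 ± 0.060 on the Rptor cKO arrays and 7.19 ± 0.070 on the wild-type arrays (SD, n = 3 each), a difference of -0.22 (limma adjusted p = 0.184). The groups did not overlap for either gene. Polr1e, a peripheral subunit that helps in starting transcription, differed by -0.07 (SE 0.11), and its groups overlapped.

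The factors that bring the polymerase to the rRNA genes did not pass the test. Rrn3 (chromosome 16, 13780699 to 13814841) read 7.24, 6.81 and 7.05 in Rptor cKO, against 7.20, 7.15 and 7.37 in wild type. The groups overlapped, with Rptor cKO array 1 inside the wild-type range and arrays 2 and 3 below it. The difference was -0.21, with a 95% confidence interval from -0.50 to 0.08. Ubtf (chromosome 11, 102304560 to 102323649) read 7.36, 7.79 and 7.63 in Rptor cKO, against 7.40, 7.37 and 7.46 in wild type. Here Rptor cKO array 1 was the lowest of all 6 and the other Rptor cKO arrays the highest. The difference was 0.19, with a 95% confidence interval from -0.09 to 0.46. RRN3 is controlled by phosphorylation, which arrays do not read.

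**Figure D2:**
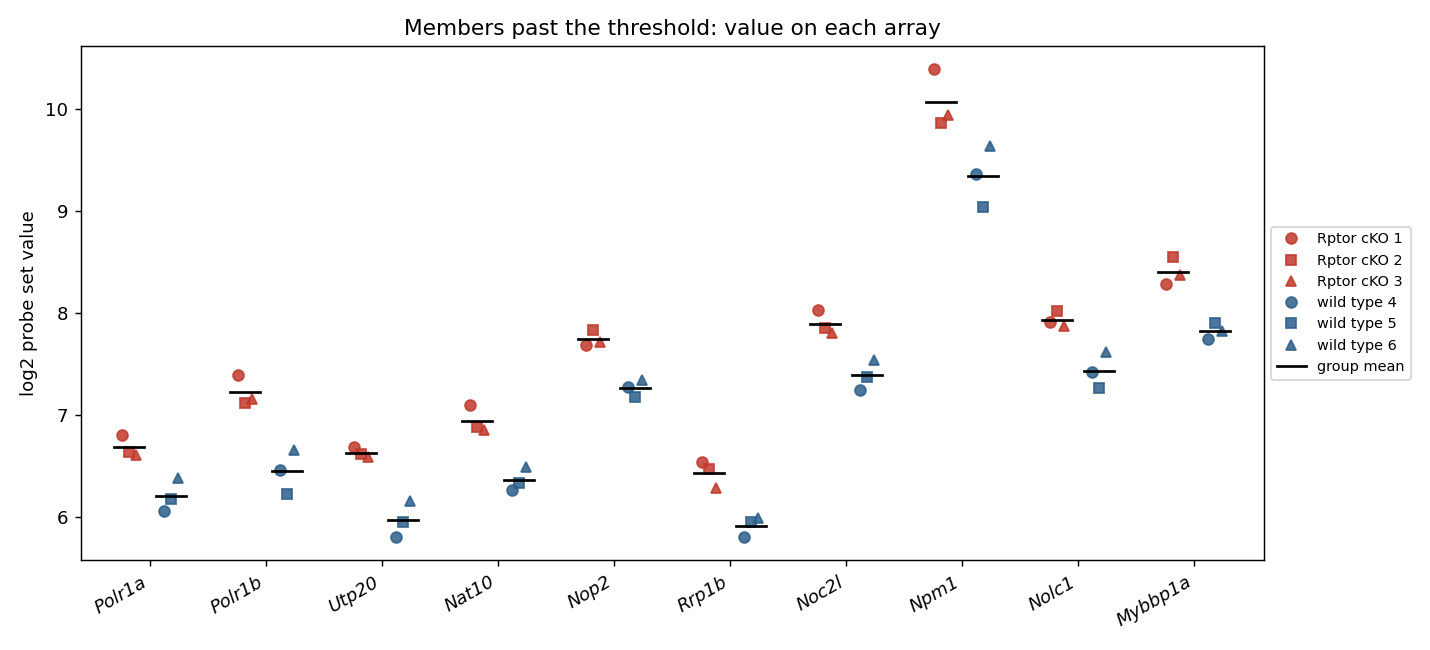
Log2 probe set value of the 10 members that passed the test on each of the 6 arrays, Rptor cKO (red) left of wild type (blue) for each gene, with symbols for the arrays and a bar at each group mean. In each gene the 3 Rptor cKO points lie above the 3 wild-type points, most closely for Npm1 and Polr1a, where wild-type array 6 comes nearest.

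Genes of small-subunit processing mostly lay above 0, but few passed. Of 17 members 2 rose (11.8%, against 3.64% of all genes), none fell and 15 did not pass. Of the differences 14 were above 0, and the median was 0.23. Utp20, a large scaffold protein of the processome (chromosome 10, 88746607 to 88826814), read 6.68, 6.62 and 6.59 in Rptor cKO, against 5.80, 5.95 and 6.15 in wild type. The Rptor cKO arrays were nearly equal and all higher than the wild type. It rose by 0.66 (SE 0.11, adjusted p = 0.00947), the smallest p of the 44. Nat10, the acetyltransferase that modifies small-subunit rRNA (chromosome 2, 103721258 to 103762954), read 7.10, 6.88 and 6.85 in Rptor cKO, against 6.26, 6.33 and 6.49 in wild type. It rose by 0.58 (SE 0.11, adjusted p = 0.0140), and its call was lost without Rptor cKO array 2.

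Nop14 and Wdr43 came next by size among the small-subunit genes. Nop14, a core processome protein, differed by 0.53 (SE 0.16, adjusted p = 0.0822). Wdr43, of the early complex that binds the nascent precursor, differed by 0.46 (SE 0.14, adjusted p = 0.0855). Both had all Rptor cKO arrays above all wild-type arrays. Among the other members of that early complex, Utp15 differed by 0.23, Wdr75 by 0.20 and Heatr1 by 0.25, and their groups overlapped.

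Utp18, Utp6 and Utp3, also of the processome, differed by 0.30, 0.06 and -0.22, each within overlapping groups. Rrp9, a protein of the U3 RNP, averaged 7.18 ± 0.016 on the Rptor cKO arrays and 6.99 ± 0.024 on the wild-type arrays (SD, n = 3 each), a difference of 0.19 with adjusted p = 0.202 by limma. Both groups were tight and did not overlap, but the difference was small. Nol6 (0.27), Noc4l (0.18) and the cleavage factor Rcl1 (0.29) lay near the median. Nol10 (-0.01) and the late factors Bysl (-0.02) and Ltv1 (0.08), which stay with the small subunit as it leaves the nucleolus, lay near 0.

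The proteins of small nucleolar RNPs held no call. Of 6 members none rose and none fell by limma, where 3.64% of all genes were called higher and 5.96% lower. At an unadjusted p under 0.05, 1 was higher and none lower, where 3574 and 3423 of 30063 genes were. The median was 0.28, or 0.17 without Rptor cKO array 1. Fbl, fibrillarin, the methyltransferase of box C/D RNPs (chromosome 7, 28168893 to 28179269), read 8.82, 8.88 and 8.72 in Rptor cKO, against 8.50, 8.24 and 8.53 in wild type. The groups did not overlap, and the difference of 0.39 (SE 0.11) missed the threshold (adjusted p = 0.0632). Nop58, which binds the same RNPs, read 9.27, 8.58 and 8.64 in Rptor cKO, against 8.25, 7.90 and 8.75 in wild type. Wild-type array 6 exceeded Rptor cKO arrays 2 and 3, so that the groups overlapped at a difference of 0.53 (SE 0.24, adjusted p = 0.233).

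In the box H/ACA RNPs, Dkc1, dyskerin, the pseudouridine synthase (chromosome X, 75095854 to 75109776), read 7.44, 7.08 and 7.14 in Rptor cKO, against 6.96, 6.61 and 7.24 in wild type. The groups overlapped through wild-type array 6, and the difference was 0.28 with a 95% confidence interval from -0.10 to 0.67. Its partners differed from each other in sign. Gar1 differed by 0.28 (SE 0.13, limma adjusted p = 0.236) with all Rptor cKO arrays above all wild-type arrays. Nop10 differed by 0.14 with overlapping groups. Nhp2 differed by -0.18 (SE 0.10, limma adjusted p = 0.299) with all Rptor cKO arrays below all wild-type arrays.

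Genes of large-subunit processing held 3 rises among 9 members (33.3%, against 3.64% of all genes), none fell and 6 did not pass. Their median was 0.34. Nop2, the methyltransferase of large-subunit rRNA (chromosome 6, 125131883 to 125144753), read 7.69, 7.83 and 7.71 in Rptor cKO, against 7.28, 7.17 and 7.34 in wild type. Both groups were tight and lay apart, and the rise was 0.48 (SE 0.093, adjusted p = 0.0164). Rrp1b, a nucleolar protein of the large-subunit precursor (chromosome 17, 32036162 to 32062865), read 6.54, 6.47 and 6.28 in Rptor cKO, against 5.80, 5.94 and 5.99 in wild type. It rose by 0.52 (SE 0.10, adjusted p = 0.0193). Noc2l, which pairs with NOC3L on early large-subunit particles and also binds p53 and histones (chromosome 4, 156234655 to 156247616), read 8.03, 7.85 and 7.80 in Rptor cKO, against 7.24, 7.37 and 7.54 in wild type. It rose by 0.50 (SE 0.11, adjusted p = 0.0268). The call of Nop2 was lost without Rptor cKO array 2. Those of Rrp1b and Noc2l were lost without Rptor cKO array 1 or 2 or wild-type array 4, and that of Noc2l also without wild-type array 5.

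The PeBoW complex, made of PES1, BOP1 and WDR12, held no call. Bop1 read 7.32, 7.45 and 7.58 in Rptor cKO, against 7.66, 7.64 and 7.78 in wild type. All its Rptor cKO values were lower, by 0.24 on average (difference -0.24, SE 0.10), with a limma adjusted p of 0.194. Pes1 differed by 0.14 and Wdr12 by 0.25, both with overlapping groups. Noc3l (0.34), the ribosome assembly factors Rrs1 (0.36) and Nop16 (0.29) did not pass, and the groups of Noc3l and Nop16 did not overlap.

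The abundant nucleolar proteins with several roles had the highest median, 0.58. Of 5 members 3 rose (60%, against 3.64% of all genes), none fell and 2 did not pass. Npm1, nucleophosmin, a chaperone of histones and ribosomal proteins that keeps the nucleolus in shape (chromosome 11, 33152498 to 33164142), read 10.39, 9.87 and 9.94 in Rptor cKO, against 9.36, 9.03 and 9.63 in wild type. It rose by 0.72 (SE 0.18, adjusted p = 0.0458), just inside the threshold. Ncl, nucleolin, which binds the rRNA genes and their transcripts (chromosome 1, 86344719 to 86359455), read 9.22, 8.84 and 8.82 in Rptor cKO, against 8.32, 7.86 and 8.63 in wild type. With a difference of 0.69 (SE 0.20, adjusted p = 0.0670) it lay just outside. These genes showed a wide spread within both groups, array 1 being high in Rptor cKO and array 5 low in wild type.

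Mybbp1a, a repressor of RNA polymerase I that also takes part in processing (chromosome 11, 72441327 to 72451770), read 8.28, 8.55 and 8.37 in Rptor cKO, against 7.74, 7.90 and 7.82 in wild type. It rose by 0.58 (SE 0.10, adjusted p = 0.0117). Nolc1, a scaffold that carries small nucleolar RNPs (chromosome 19, 46075847 to 46085543), read 7.91, 8.02 and 7.87 in Rptor cKO, against 7.42, 7.26 and 7.62 in wild type. It rose by 0.50 (SE 0.11, adjusted p = 0.0275). Unlike Npm1, Mybbp1a was not highest on Rptor cKO array 1. Ddx21, an RNA helicase of rRNA genes, differed by 0.32 (SE 0.19) with overlapping groups. The calls of Npm1 and Nolc1 were lost with any 1 array left out other than wild-type array 6, and that of Mybbp1a without Rptor cKO array 2. Differences between the 5 roles were not tested.

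The members also varied together within groups. Rptor cKO array 1 was the highest of its group for 27 of 44 members (61.4%), against 30.6% of all genes. Wild-type array 6 was the highest of its group for 35 members (79.5%), against 26.5% of all genes, and the lowest for 1. Averaged over the 44 members, the log2 value was 7.36, 7.23 and 7.19 in Rptor cKO, against 6.93, 6.88 and 7.13 in wild type. The median difference of the members was 0.22 when Rptor cKO array 1 was left out, and 0.35 when wild-type array 6 was. Rptor cKO array 1 also had the highest median of negative control probe sets, 4.11, against 3.81 to 3.87 on the other 5 arrays. The part of that in the result was not tested.

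**Figure D3:**
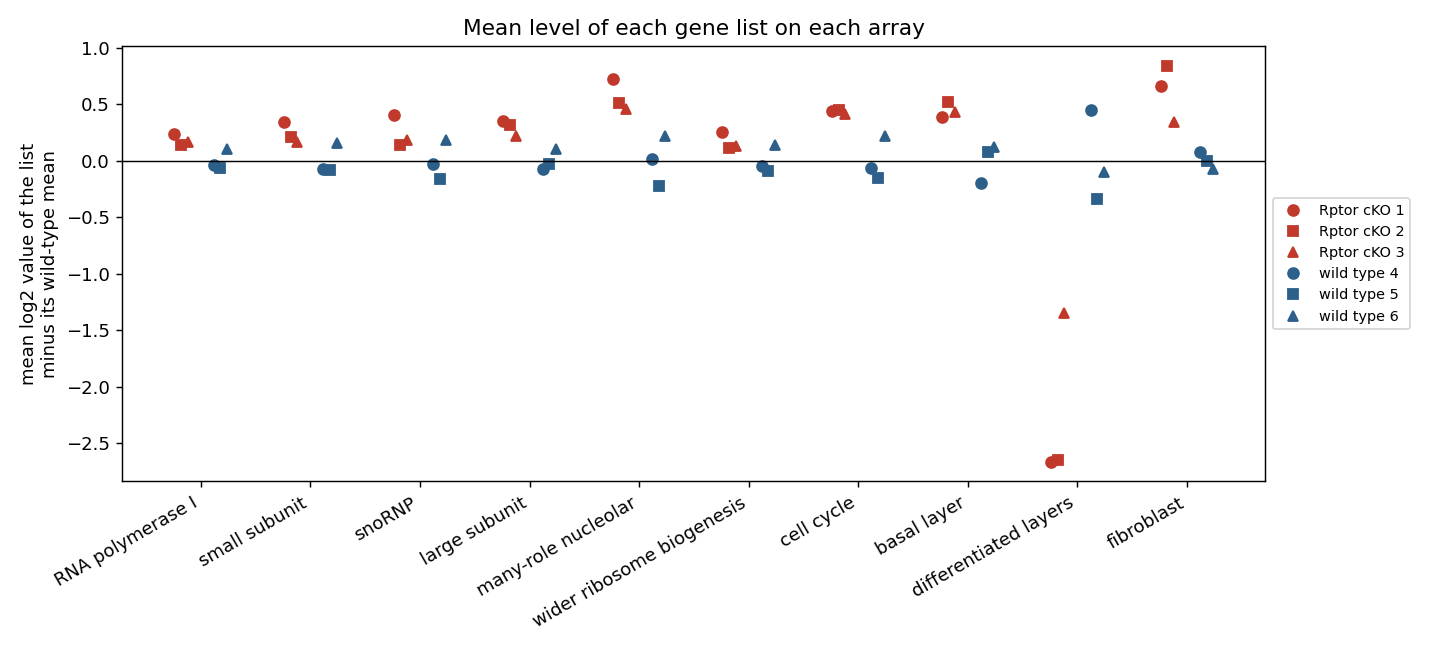
Mean log2 value of each gene list on each array minus the wild-type mean of the list, Rptor cKO (red) left of wild type (blue), with symbols for the arrays. The ribosome biogenesis lists and the cell cycle list show the Rptor cKO points above 0 and wild-type array 6 as the highest wild-type point, while the differentiated layer list lies far below 0 in Rptor cKO.

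Markers of other cell states and cell types were read as well, and some lists moved. Of all genes 3.64% were called higher and 5.96% lower. The share called higher was 43.5% of the cell cycle list and 36.4% of the basal layer list. In the differentiated layers 92.9% of the list was called lower. Of 23 cell cycle genes 10 were higher and none lower, with a median difference of 0.43 and mean levels of 7.44 to 7.48 in Rptor cKO and 6.88 to 7.24 in wild type. Of 11 basal layer genes 4 were higher and none lower, with means of 8.44 to 8.57 in Rptor cKO and 7.85 to 8.17 in wild type. Of 14 genes of the differentiated layers 13 were lower and none higher, with means of 8.26 to 9.57 in Rptor cKO and 10.58 to 11.36 in wild type. The part of these changes in the level of the members was not tested. Of 10 general keratinocyte genes, which mark the sheet as epidermis, 1 was higher and 5 lower. Their means were 9.66 to 10.31 in Rptor cKO and 10.41 to 10.64 in wild type. The 5 lower genes were Krt15 (-2.31, limma adjusted p = 0.00687), Krt1 (-2.07), Krt10 (-1.76), Dsp (-0.56) and Perp (-0.44). Dsg3 (0.70) was the higher gene, while Krt5 (0.04) and Krt14 (0.26) did not pass. Krt15 is a keratin of basal cells that was not on the basal layer list, so the count of none lower there leaves out its fall. Krt1 and Krt10 were also on the list of the differentiated layers. Without Rptor cKO array 2 the calls numbered 2 cell cycle, 2 basal and 5 differentiated genes, and without Rptor cKO array 3 the cell cycle calls numbered 5. Over all genes 900 and 2444 were called in these fits, against 2886 in the main fit. Without wild-type array 6, 6 differentiated genes passed, and without wild-type array 4 or 5, 6 cell cycle genes. With embryo sex as a term the limma calls numbered 0 cell cycle, 2 basal and 8 differentiated genes, with 10 cell cycle genes higher and none lower at an unadjusted p under 0.05.

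The lists of other cell types are short, and 3.64% of all genes were called higher and 5.96% lower. Of 8 fibroblast genes 4 were higher, namely Col1a1, Col3a1, Dcn and Lum, and none lower. Their means were 6.22 to 6.72 in Rptor cKO and 5.80 to 5.96 in wild type. Lum lay under the negative control median on 2 arrays. The fibroblast count was 1 without Rptor cKO array 2 or wild-type array 6, 2 without Rptor cKO array 1 or wild-type array 5, and 6 without Rptor cKO array 3, and it was 2 with embryo sex as a term, where no melanocyte or leukocyte gene passed by limma (1 melanocyte gene higher and 3 leukocyte genes lower unadjusted). Melanocyte genes held 1 higher of 7 (none without Rptor cKO array 2 or 3 or wild-type array 5, and 2 without Rptor cKO array 1), with means of 7.18 to 7.81 in Rptor cKO and 6.78 to 7.39 in wild type. Endothelial genes held 1 higher of 8, with means of 4.07 to 4.23 in Rptor cKO and 3.85 to 4.10 in wild type, and 3 of these genes never exceeded the negative control median. Leukocyte genes held 3 lower of 8 (2 without Rptor cKO array 2), with means of 4.70 to 4.98 in Rptor cKO and 5.19 to 5.27 in wild type. Among the 3, Ptprc lay under the negative control median on 4 arrays, all 3 Rptor cKO arrays included. With genes below the negative control level left out, 2 leukocyte genes were called lower. Merkel cell genes held 1 higher and 1 lower of 7, with means of 4.62 to 4.86 in Rptor cKO and 4.77 to 4.89 in wild type. Muscle genes held none of 6 by limma, with means of 5.51 to 6.10 in Rptor cKO and 5.11 to 5.63 in wild type. At an unadjusted p under 0.05, 5 of the 6 were higher and none lower, where 3574 and 3423 of 30063 genes were. The part of these lists in the result was not tested.

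The wider pathway was described from 89 further measured genes of ribosome biogenesis, listed by role. Like the members, they were chosen with earlier results of these data known. Of these 5 rose (5.62%), none fell and 84 did not pass, with a median of 0.16. Of all genes 3.64% were called higher, or 5.39% with genes below the negative control level left out. The share of the wider list was near the latter. At an unadjusted p under 0.05, 29 of the 89 were higher and 1 lower, where 3574 and 3423 of 30063 genes were. The 5 were Sdad1 (0.61, SE 0.099) and Ppan (0.47, SE 0.092) of the large subunit, Pelp1 (0.37, SE 0.092), a scaffold of the complex that releases large-subunit particles, Utp4 (0.65, SE 0.16) of the small-subunit processome and Ruvbl2 (0.48, SE 0.11), an ATPase that helps assemble small nucleolar RNPs. By role the rises were 3 of 41 large-subunit genes, 1 of 34 small-subunit genes, 1 of 7 genes of small nucleolar RNP assembly and none of 7 of the polymerase I machinery. The count was 3 without Rptor cKO array 1 or 3, 1 without array 2, and 2 without wild-type array 4 or 5. The share of all genes called higher was below 3.64% in each of these fits too. Sdad1, a factor of large-subunit export known from yeast, passed in each of the 6 fits with an array left out. Utp4 passed in none of them. With embryo sex as a term none of the 5 passed by limma, while 10 genes of the wider list were higher and 1 lower at an unadjusted p under 0.05.

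The rest of the polymerase I machinery gave no call, with none of 7 past an unadjusted p under 0.05 either. The largest difference was that of Taf1a, of the promoter selectivity factor that RRN3 bridges to the polymerase. It read 7.04, 6.75 and 6.75 in Rptor cKO, against 6.40, 6.36 and 6.81 in wild type, so that wild-type array 6 lay among the Rptor cKO values (difference 0.32, SE 0.14, adjusted p = 0.226). Twistnb, the gene of the subunit now called POLR1F, differed by 0.27 (SE 0.15).

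RNA polymerase III, which makes transfer RNA and the smallest rRNA, held few calls, as did all genes. The median difference of 20 genes of its subunits and factors was 0.10. None of the 20 rose, against 3.64% of all genes, and 1 fell (5%, against 5.96% of all genes). The gene was Polr3g, a subunit isoform enriched in pluripotent stem cells, which read 6.17, 5.72 and 6.10 in Rptor cKO, against 6.95, 6.52 and 6.67 in wild type. It fell by 0.71 (SE 0.15, adjusted p = 0.0244), and the call was lost without Rptor cKO array 2 or wild-type array 4 or 6. Maf1, the repressor of that polymerase through which mTORC1 acts, differed by 0.10 (SE 0.15). Of 4 subunits that all nuclear RNA polymerases share, Polr2h rose by 0.44 (SE 0.095, adjusted p = 0.0250), and the others did not pass. That call held without wild-type array 6, and was lost in the fits without any other array and with embryo sex as a term, where that of Polr3g held.

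**Figure D4:**
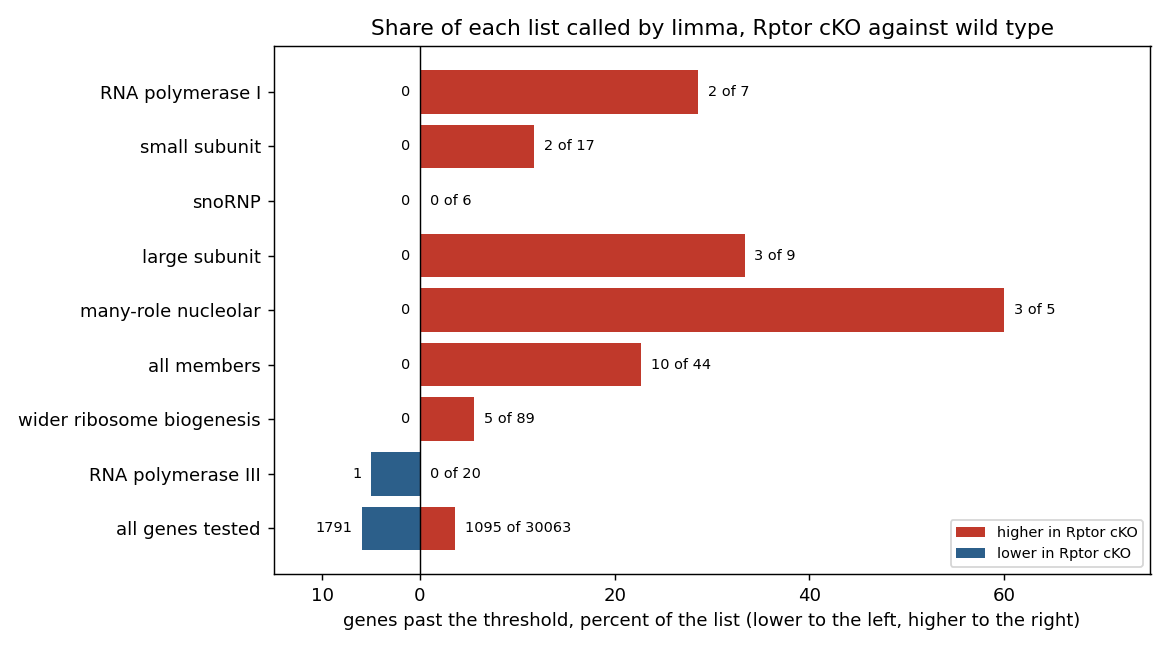
Percent of each gene list past a limma adjusted p of 0.05, higher in Rptor cKO to the right and lower to the left, with counts beside the bars. The members hold 10 of 44 calls higher and none lower, the wider list 5 of 89 and none lower, RNA polymerase III 1 of 20 lower, and all genes 1095 higher and 1791 lower of 30063.

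Genes of the MYC network were read on the same arrays. Of 10 genes 1 rose (10%, against 3.64% of all genes) and 3 fell (30%, against 5.96% of all genes). Myc, the activator of ribosome genes, read 7.46, 7.60 and 7.26 in Rptor cKO, against 6.56, 7.03 and 6.45 in wild type, and rose by 0.76 (SE 0.16, adjusted p = 0.0246). Its call was lost without Rptor cKO array 1 or 2 or wild-type array 4 or 6. Mxd1, the antagonist of MYC that appears as keratinocytes differentiate, read 6.88, 6.86 and 7.41 in Rptor cKO, against 9.31, 8.32 and 8.33 in wild type. It fell by 1.61 (SE 0.27, adjusted p = 0.0101), a 3.05-fold difference, and lost its call without Rptor cKO array 2. Mxi1 and Mxd4, of the same family, fell by 0.54 (SE 0.13) and 0.41 (SE 0.10). Each of these passed in 1 of the 6 fits with an array left out, and neither passed after quantile normalization was applied again. The call of Mxi1 also depended on the probe set. It was lost with the mean of the gene's probe sets and with the probe set of the lowest mean. With embryo sex as a term none of the 10 genes of the network passed by limma, with 3 higher and 3 lower at an unadjusted p under 0.05. Myc then differed by 0.92 (adjusted p = 0.105) and Mxd1 by -1.80 (adjusted p = 0.0784). The other 6 genes of the list did not pass. Of these Mycn (0.36) and the MYC antagonists Mga (0.51), Mnt (0.32) and Mxd3 (0.22) lay above 0. Mlx (-0.58) and Max (-0.44) lay below 0.

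**Figure D5:**
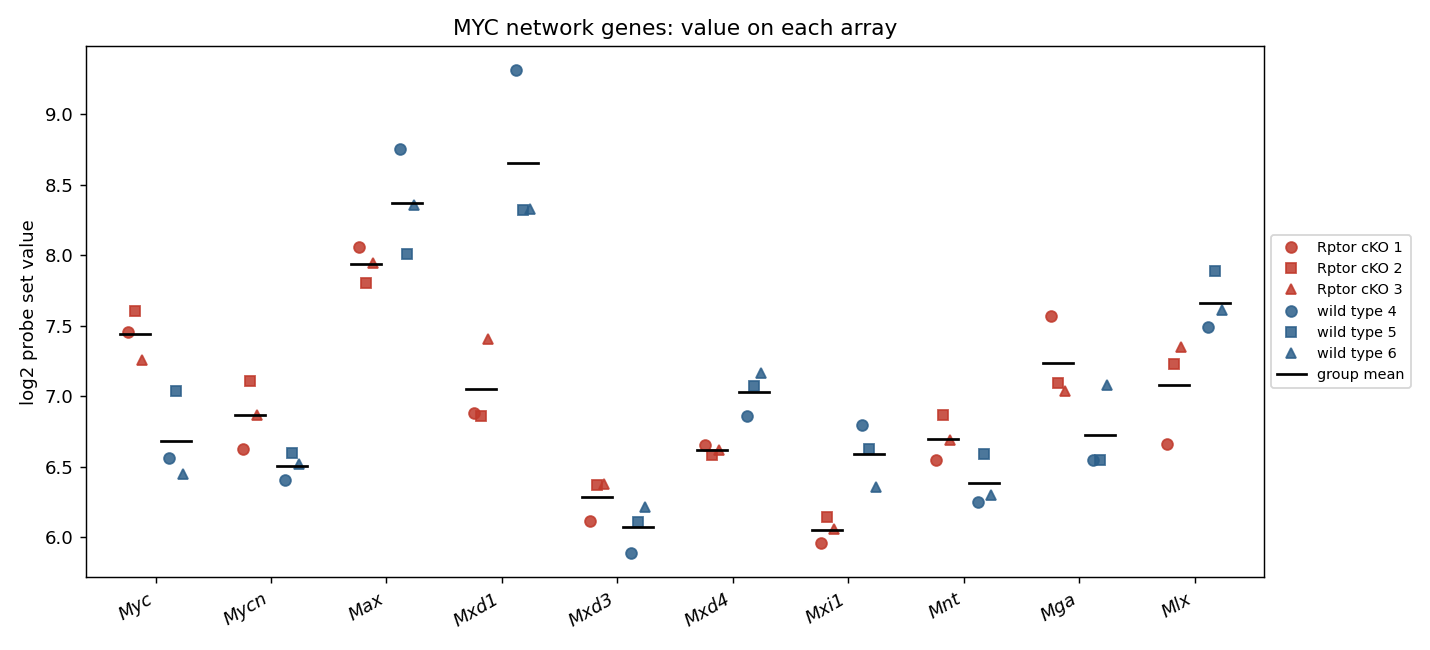
Log2 probe set value of 10 genes of the MYC network on each array, Rptor cKO (red) left of wild type (blue), with a bar at each group mean. Myc and Mycn lie higher and Mxd1, Mxd4, Mxi1 and Mlx lie lower in Rptor cKO without overlap.

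Promoters were read for 38 of the 44 members, from RefSeq windows on GRCm38.p6, to show the upstream sequence of members that were called together. The 250 bases before the start were searched on both strands for the E-box CACGTG, bound by MYC and related factors, the ETS motif CCGGAAG, the core GCATGCG of the NRF1 motif and the palindrome TCGCGA. No pair of these motifs overlapped in the stretches shown. The E-box was found in 3 of 38 members (7.89%), against 7.61% of 17492 protein-coding genes with a window. The ETS motif was found in 10 members (26.3%), against 10.2% of all, and in 37.3% of 75 genes of the wider list. TCGCGA was found in 3 members (7.89%), against 3.18% of all and 2.67% of the wider list. GCATGCG was found in 1 member (2.63%), against 4.24% of all and 14.7% of the wider list. The E-box was found in 12% of the wider list. Of the 9 members that rose and have a window, 2 held the ETS motif and 1 the E-box, and of the 29 that did not pass, 8 and 2. A match is a description of letters and not of a bound site.
The stretches around the motifs are given for the members that rose and hold a motif, and for Rrn3, with each motif in capitals:
Nop2, chr6:125131803-125131871, plus strand, E-box then ETS motif: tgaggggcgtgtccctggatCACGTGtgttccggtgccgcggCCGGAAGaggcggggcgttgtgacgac
Nolc1, chr19:46075813-46075846, plus strand, ETS motif: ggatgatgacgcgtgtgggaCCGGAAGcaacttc
Utp20, chr10:88826833-88826879, minus strand, core of the NRF1 motif read on the opposite strand: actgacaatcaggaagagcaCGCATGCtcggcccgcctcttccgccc
Mybbp1a, chr11:72441077-72441113, plus strand, TCGCGA: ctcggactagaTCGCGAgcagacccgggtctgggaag
Rrn3, chr16:13780464-13780676, plus strand, E-box at both ends: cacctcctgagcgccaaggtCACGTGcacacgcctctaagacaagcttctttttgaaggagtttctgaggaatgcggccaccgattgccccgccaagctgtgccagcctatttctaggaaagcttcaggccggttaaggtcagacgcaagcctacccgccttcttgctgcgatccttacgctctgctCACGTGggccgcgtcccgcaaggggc
The Rrn3 window held the E-box at 2 places, and Rrn3 did not pass the test. The windows of Polr1a and Polr1b held none of these letters.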

How the data were processed

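RNA of 6 samples was measured on arrays. The values deposited by the authors are on the log2 scale, 1 per probe set. RMA, Partek and the build mm10 are named per the submitters' processing notes, without versions. RMA usually includes quantile normalization, which hides a general change in RNA per cell, and dim probe sets understate changes. Values ran from 1.34 to 14.04. Scan dates and slides were not used here. Of 72688 probe sets, 6732 were controls, 30604 named 1 gene, 2146 several and 33206 none. Symbols were updated through Entrez IDs (22818 matched) or a unique synonym, 1135 in all. These gave 30063 genes.

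The fit used limma 3.58.1 (lmFit, eBayes; R 4.3.3) on all 6 arrays with the group as the term, two-sided, with Benjamini-Hochberg adjustment over 30063 genes. No filter on dim probe sets was set. SE is the moderated standard error, with 4.31 prior degrees of freedom. For a single gene, an exact permutation test of 3 against 3 arrays cannot go below p = 0.1. The submitters call the replicates biological, and p-values measure the spread between these samples alone. On simulated data of 30063 genes the procedure recovered 0.4% of genes changed by 0.3, 16% at 0.5, 78% at 1 and 93.2% at 1.5. Far fewer genes were changed in the simulation than passed here, so its adjusted threshold was stricter. These shares do not give the power of this test, and differences of the size seen here may be missed. No set test was run. In the main fit 3574 of 30063 genes were higher and 3423 lower at an unadjusted p under 0.05. Such counts over all genes were not made for the other fits.

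The members and lists were chosen with earlier results of these data known. Values on every array are given for members that passed, for the 2 members with the smallest p in a role where fewer than 2 passed, and for Polr1a, Rrn3, Ubtf, Fbl, Dkc1, Ncl, Npm1 and Nat10. All members are named. Of each wider list up to 4 genes with the smallest p in each direction were named where they passed, or 2 where none did. Array values of Bop1, and Maf1, Mycn, Max, Mga, Mnt, Mxd3 and Mlx, were added after their values were seen. Alternatives changed the scaling, the filter, the probe set, the moderation, embryo sex and the arrays used. Python 3.11.15, pandas 2.3.3 and matplotlib 3.10.9 were used for annotation and plots.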

Additional observations from a re-analysis of the deposited data

How the results depend on the processing

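The count of 10 members higher in Rptor cKO was 6 with array medians subtracted, 17 with quantile normalization applied again, 8 with a variance trend and robust moderation, 1 (Mybbp1a) with embryo sex as a term, and 0 with an ordinary linear model without moderation, where 16 members were higher and 2 lower at an unadjusted p under 0.05. It ran from 2 to 11 with an array left out, and was 10 with the dim genes left out and with either other choice of probe set. All 10 members were among the 17 of the quantile fit. The fit with sex compares Rptor cKO array 2 with the wild type. No member was lower past the threshold in any of the 14 alternatives, and between 34 and 39 members lay above 0. The 5 genes of the wider list numbered 2 with array medians subtracted, 14 with quantile normalization, 2 with trend, 0 with sex (10 higher and 1 lower unadjusted) and 0 with the ordinary model (21 higher and 1 lower unadjusted), and 1 to 7 with an array left out. Over all genes the ordinary model called 8, the fit with sex 643 and the fit without Rptor cKO array 2 900, against 2886. Of the calls, 37.9% were higher in the values as reported and 48.2% with quantile normalization. The median of the polymerase I genes was 0.31 with quantile normalization, and that of the large-subunit genes ran from 0.24 to 0.38 with an array left out. The medians of the other roles moved by less than the spread between replicates in all 14 alternatives. Rptor ran from -0.54 to -0.30 and passed in none. No paired analysis was possible because the groups share no replicate numbers. The cause of these shifts was not tested. Signal over background limits the members read below the 95 percentile of negative controls.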

Other observations

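Small nucleolar RNA genes, the guides of rRNA modification, were read by probe sets of their own and were grouped by name after their values were seen. Of 62 with the prefix Snord or Snora, 9 were higher in Rptor cKO (14.5%, against 3.64% of all genes), none lower and 53 did not pass, with a median difference of 0.17. At an unadjusted p under 0.05, 16 of the 62 were higher and 1 lower, where 3574 and 3423 of 30063 genes were. Snora78 read 7.94, 8.22 and 7.64 in Rptor cKO, against 6.86, 6.95 and 6.57 in wild type, a rise of 1.14 (SE 0.16, adjusted p = 0.00563). Snord14a averaged 7.64 on the Rptor cKO arrays and 6.58 on the wild-type arrays, a rise of 1.05 (SE 0.16). The groups did not overlap for either gene. Many such RNAs lie within introns of other genes, and whether a probe set also reads the host transcript was not tested. Of 10 genes with the prefix Snhg, given to non-coding hosts, 3 rose (30%, against 3.64% of all genes) and none fell. The 3 were Snhg17 (0.60, SE 0.12), Snhg15 (0.48, SE 0.10) and Snhg18 (0.42, SE 0.11). Calls in these lists were not counted with an array left out or with embryo sex as a term.

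Rn28s1, named for large-subunit rRNA, read 12.74, 13.22 and 13.07 in Rptor cKO, against 13.05, 13.10 and 12.84 in wild type, a difference of 0.01 (SE 0.14, limma adjusted p = 0.966). It was chosen after its value was seen. The amount of rRNA per cell was not measured.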
